A study of Mus musculus with 4 samples.

Results

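The insulin-like growth factor (IGF) genes described here are Igf1, the receptor genes Igf1r and Insr, and the binding-protein genes Igfbp2 to Igfbp7. They were taken by symbol from a deposited table of read counts, which held all 9 of them among 25239 genes. Igf2 is not part of this set. The cells came from hindlimb buds of FVB mouse embryos at embryonic day 11.5, labelled wild-type, and every embryo of both groups carried an mCherry reporter transgene at the H11 locus. In that transgene, hsp68-hZRS(404G>A)-mCherry, a human ZRS enhancer with the 404G>A change drives the red fluorescent protein. The ZRS controls Shh in the limb from a large distance. The groups were anterior cells sorted as mCherry+ and central cells sorted as mCherry-, with 2 libraries each. The groups therefore differ both in limb bud domain and in reporter activity, and these cannot be told apart. The labels do not give the number of embryos behind a library, nor whether libraries came from separate litters, so the p-values measure only the spread between these libraries.

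IGFs are secreted growth factors that signal through Igf1r, a receptor tyrosine kinase, and through the closely related insulin receptor Insr. The binding proteins hold IGFs outside the cell and can restrain, store or deliver them, and proteases such as Pappa release the ligand by cutting certain binding proteins. In the limb bud, IGF signals are known for supporting the growth of mesenchyme, and Igfbp2 and Igfbp5 are also known from limb ectoderm.

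Library totals ranged from 30080925 to 33257383 counts, and 14610 genes were tested. The limb mesenchyme markers Prrx1, Pitx1 and Tbx4 were high in all libraries and were not called different, whereas Prrx2 and Twist1 were higher and Pdgfra was lower in anterior cells. Tbx4 was called lower when central replicate 1 was left out (log2 change -0.21, edgeR adjusted p-value 0.0266). Levels are given as CPM (read counts relative to library size, with trimmed mean of M values factors, TMM). The summed limb mesenchyme markers stood at 2379 to 2430 CPM in anterior and 2231 to 2371 in central libraries. This sum joins changes in opposite directions. Prrx2 and Twist1 had group means of 308 and 469.5 CPM in anterior against 82.0 and 265 in central cells. For Pdgfra the means were 258 in anterior and 582 CPM in central cells. Erythroid markers summed to 3294 and 8400 CPM in the anterior libraries and to 5.98 and 9.48 in the central ones. Markers of several other cell types were higher in central libraries, namely ectoderm, muscle precursors, cartilage, tendon and connective tissue, and endothelium. RNA of sorted bulk cells cannot separate fewer cells of a type from less RNA per cell.

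**Figure D1:**
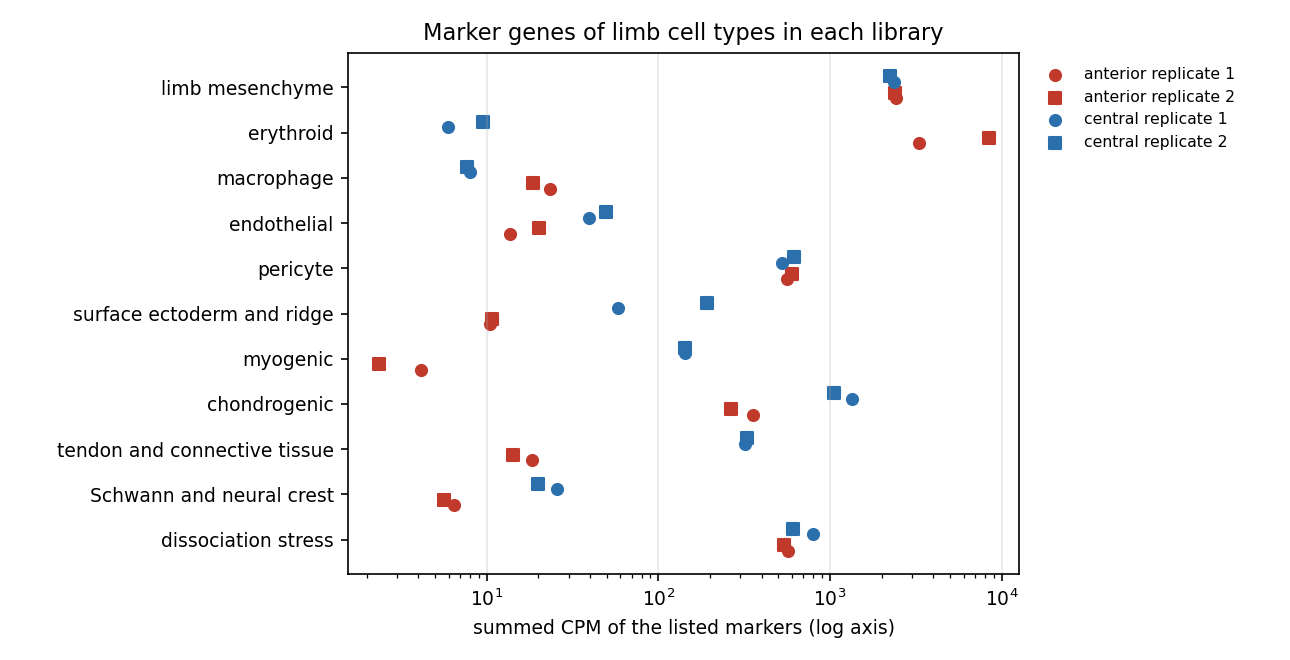
Summed TMM-scaled CPM of marker lists (rows) in each library, on a log axis, with circles for replicate 1 and squares for replicate 2. Limb mesenchyme markers sum to 2231 to 2430 CPM, a sum that joins changes in opposite directions. Erythroid markers are high in both anterior libraries, and myogenic markers sum to 2.35 and 4.17 CPM in anterior against 142 and 143 in central libraries.

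Igf1 and 4 of the 6 binding-protein genes were lower in anterior cells, while neither receptor gene was called. The log2 fold changes were -5.68 for Igfbp5, -3.62 for Igfbp3, -1.64 for Igf1, -1.09 for Igfbp2 and -0.59 for Igfbp4. In all, 5 of the 9 genes were called and all 5 were lower, against 22.9% of all tested genes called in either direction and 12.3% called lower (edgeR quasi-likelihood test, Benjamini-Hochberg adjusted p under 0.05). The median log2 fold change of the 9 genes was -1.09, beside -0.0087 over all tested genes. All 9 passed the filter on low counts, and they were chosen with earlier results of these data known.

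**Figure D2:**
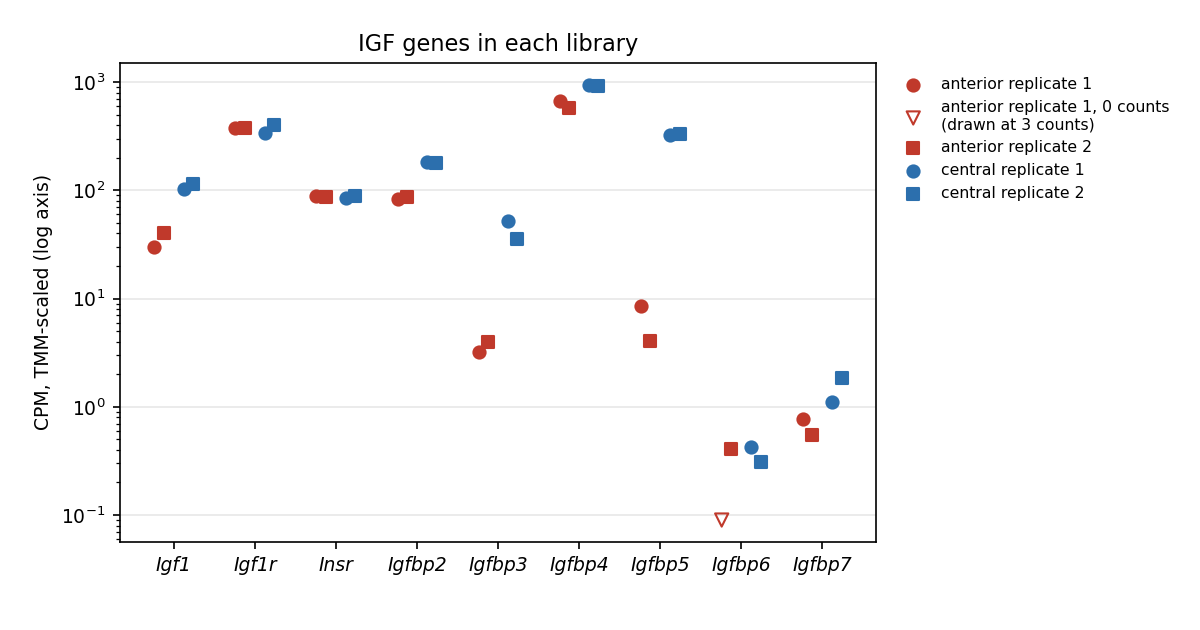
TMM-scaled CPM of each IGF gene (log axis) in the 4 libraries, with red for anterior, blue for central, circles for replicate 1 and squares for replicate 2. Igf1 and Igfbp2 to Igfbp5 are lower in both anterior libraries, and Igf1r and Insr overlap between the groups. The open triangle stands for the library with 0 Igfbp6 counts, drawn at 3 counts.

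Igf1, the ligand, measured 29.9 and 40.5 CPM in the anterior libraries and 104 and 115 CPM in the central ones. Both anterior libraries were below both central ones, and the lowest central value was 2.56 times the highest anterior value. Group means were 35.2 ± 7.45 and 109.5 ± 8.26 CPM (SD, n = 2 each). Igf1 was thus 3.12-fold higher in central cells, a log2 fold change of -1.64 ± 0.13 (SE; edgeR adjusted p-value 6.01e-05). The gene lies on chromosome 10 (GRCm38, chr10:87858265-87937042, plus strand), and its transcripts in GENCODE M21 together cover 9904 exonic bases. On the same build, Igf1r lies at chr7:67952827-68233668 (plus strand), Insr at chr8:3122061-3279617 (minus), Igfbp3 at chr11:7206086-7213923 (minus), Igfbp4 at chr11:99041244-99054392 (plus), Igfbp6 at chr15:102144362-102149511 (plus) and Igfbp7 at chr5:77349240-77408041 (minus).

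Igf1r, the receptor through which Igf1 mainly signals, measured 375 and 374 CPM in anterior and 341 and 406 CPM in central libraries. The central libraries lay on either side of the anterior ones. Group means were 374.1 ± 0.63 and 373.4 ± 45.5 CPM (SD, n = 2), and the log2 fold change of 0.0027 had a 95% interval of -0.19 to 0.19 (edgeR adjusted p-value 0.985). Insr, which binds insulin and in some forms IGFs, measured 89.4 and 87.0 CPM in anterior and 85.3 and 89.0 CPM in central libraries, so the groups overlapped. Its log2 fold change was 0.02, with a 95% interval of -0.14 to 0.18 (edgeR adjusted p-value 0.89). The signs of both values near 0 turned with library-size and upper-quartile scaling. For both receptors the intervals leave out changes as large as that of Igf1.

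Levels of different genes were set side by side per length, as CPM per kb of annotated exon. Igf1r stood at 22.3 ± 0.04 CPM per kb in anterior and 22.2 ± 2.71 in central cells, and Insr at 6.42 ± 0.12 and 6.34 ± 0.19 (SD, n = 2). Igf1r made up 77.4% and 77.9% of the summed level of both receptors in anterior libraries and 76.6% and 78.9% in central ones. The level of Igf1 relative to that of its receptor was lower in both anterior libraries. It was 0.135 and 0.184 of the Igf1r level per length in anterior libraries and 0.515 and 0.482 in central ones. This ratio is formed within a library and does not depend on scaling between libraries. The groups did not overlap (exact permutation test, two-sided, p = 0.333, the smallest p that 2 against 2 libraries allow).

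Igfbp5 encodes a binding protein that attaches to extracellular matrix, and it had the largest change of the set. It measured 8.64 and 4.09 CPM in the anterior libraries and 327 and 334 CPM in the central ones. The anterior libraries differed 2.11-fold from each other, and the lower central value was still 37.9 times the higher anterior one. The group means of 6.36 ± 3.21 and 331 ± 5.17 CPM (SD, n = 2) gave a log2 change of -5.68 ± 0.23 (SE; edgeR adjusted p-value 1.90e-06), or 51.3-fold higher in central cells. The log2 change was -6.33 without anterior replicate 1 and -5.25 without anterior replicate 2, and it stayed called in both. Ordered by fitted fold change over all libraries, this was the fall of rank 91 among 14610 tested genes.

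Igfbp3, which encodes the main IGF carrier of adult serum, measured 3.18 and 3.99 CPM in anterior and 52.2 and 35.7 CPM in central libraries. The groups were separated by a factor of 8.96 between their nearest libraries, although the central libraries differed 1.46-fold. The group means of 3.58 ± 0.57 and 44.0 ± 11.6 CPM (SD, n = 2) gave a log2 change of -3.62 ± 0.21 (SE; edgeR adjusted p-value 9.16e-06), or 12.3-fold higher in central cells.

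Igfbp2 measured 83.2 and 87.6 CPM in anterior and 184 and 180 CPM in central libraries. Replicates differed by at most 1.05-fold, and the groups did not overlap. Its group means of 85.4 ± 3.11 and 182 ± 2.72 CPM (SD, n = 2) gave a log2 change of -1.09 ± 0.07 (SE; edgeR adjusted p-value 1.19e-05). Igfbp2 and Igfbp5 are neighbours on chromosome 1, transcribed towards each other with a gap of 5.46 kb and no protein-coding gene between them (GRCm38, Igfbp2 at chr1:72824503-72852474 on the plus strand, Igfbp5 at chr1:72857932-72874884 on the minus strand). Igfbp2 was 2.13-fold and Igfbp5 51.3-fold higher in central cells.

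Igfbp4, a binding protein cut by the protease Pappa, was the most abundant binding-protein transcript per length in all 4 libraries. It measured 664 and 579 CPM in anterior and 947 and 919 CPM in central libraries. The groups did not overlap, but the gap was narrow, with the lowest central value 1.38 times the highest anterior one. Its group means of 621 ± 60.3 and 933 ± 19.7 CPM (SD, n = 2) gave a log2 change of -0.59 ± 0.08 (SE; edgeR adjusted p-value 0.000951). When the test was made against a change of 1.5-fold instead of no change, Igf1, Igfbp2, Igfbp3 and Igfbp5 passed (edgeR adjusted p-values 0.00033, 0.000246, 1.87e-05 and 3.07e-06) and Igfbp4 did not (adjusted p-value 1).

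Igfbp6, whose protein prefers Igf2 over Igf1, and Igfbp7, whose protein binds IGFs weakly, were near the limit of detection. Igfbp6 had 0 and 12 counts in anterior and 13 and 10 in central libraries, which overlap. Its log2 fold change of -0.87 had a 95% interval of -3.44 to 1.69 (edgeR adjusted p-value 0.632), so that a difference of several fold was not detectable at this depth. The count of 0 allows up to 0.0899 CPM, for counting error only and with counts taken as independent. This limit would be higher if both reads of a pair were counted. Igfbp7 had 26 and 16 counts in anterior and 34 and 60 in central libraries. Its groups did not overlap, as was the case for 63.5% of all tested genes, and its log2 fold change of -1.15 ± 0.51 (SE) was not called (edgeR adjusted p-value 0.144). Exons of Igfbp7 share 85 bases with Polr2b on the other strand, and the strandedness of the counting is not given in the sources used here.

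**Figure D3:**
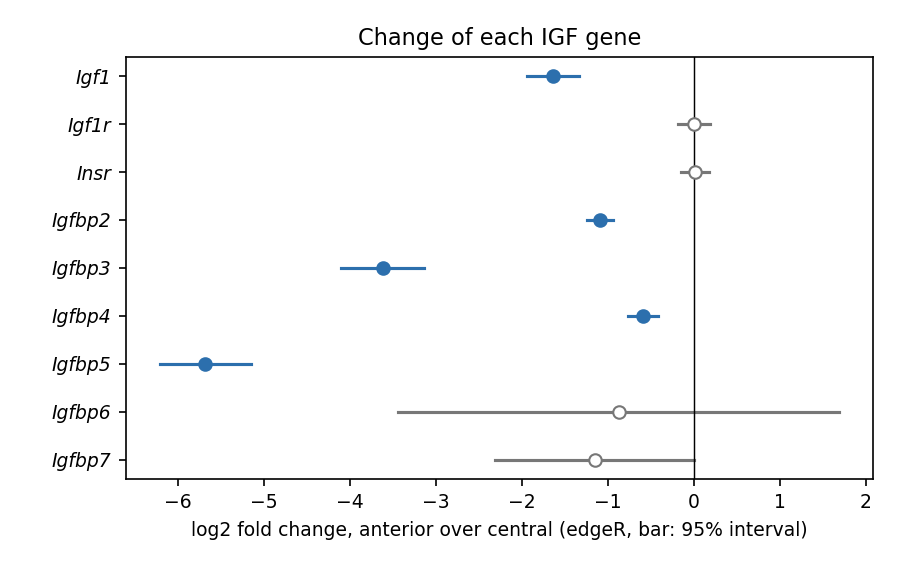
Log2 fold change of each IGF gene in anterior over central cells (points) with its 95% interval from edgeR (bars), where filled points were called. Igfbp5 and Igfbp3 lie farthest from 0, both receptor genes lie at 0 with narrow intervals, and the wide bars belong to Igfbp6 and Igfbp7.

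The binding-protein transcripts also differed in make-up. Summed per length over Igfbp2 to Igfbp7, they reached 198.5 and 181.2 CPM per kb in anterior and 386.5 and 374.6 in central libraries. Igfbp4 took 75.7% and 72.3% of this sum in anterior libraries and 55.5% and 55.6% in central ones. Igfbp2 took a like share in both groups, at 22.7% and 26.2% against 25.8% and 26.0%. Igfbp5 took 0.724% and 0.376% in anterior libraries, against 14.1% and 14.9% in central ones. Igfbp3 took 0.512% and 0.703% against 4.31% and 3.05%. The shares of Igfbp3, Igfbp4 and Igfbp5 did not overlap between groups (exact permutation test, two-sided, p = 0.333 each, the smallest possible, for 6 shares compared), whereas those of Igfbp2 did. In central cells the order per length was Igfbp4 (211 ± 4.47 CPM per kb), Igfbp2 (98.6 ± 1.47), Igfbp5 (55.1 ± 0.86), Igfbp3 (14.1 ± 3.71), Igfbp7 (1.22 ± 0.44) and Igfbp6 (0.33 ± 0.07; SD, n = 2). In anterior cells Igfbp5 stood at 1.06 ± 0.54 CPM per kb, and its place beside Igfbp3 at 1.15 ± 0.18 could not be ordered within their spread.

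**Figure D4:**
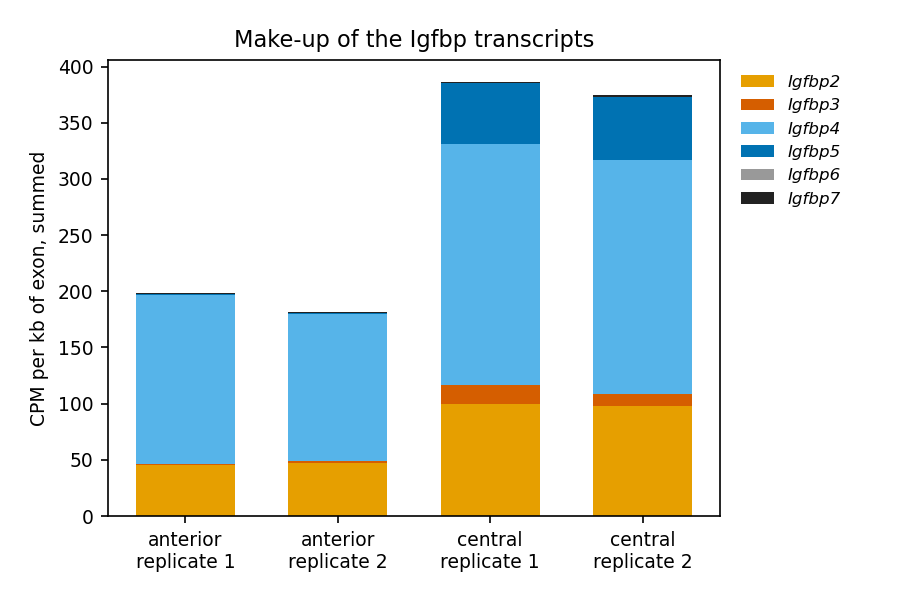
Summed level of the binding-protein transcripts in CPM per kb of exon (bars from 0), split by gene, in each library. Igfbp4 and Igfbp2 make up nearly the whole anterior bars, and the Igfbp5 segment is visible in the central libraries, at 14.1% and 14.9% of the sum.

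The start regions of the binding-protein genes with the largest falls, Igfbp5 and Igfbp3, and of the most abundant one, Igfbp4, are shown for comparison, from 100 to 21 bases before the RefSeq start on the gene's strand (GRCm38.p6). RefSeq promoter windows were at hand for 8 of the 9 genes, with none for Insr. They made up 9 windows, since Igfbp2 had an additional one. In the Igf1 window and the additional Igfbp2 window, the bases 100 to 21 before the start overlap exons of the same gene. The Igf1 window belongs to a RefSeq start at 87861111, whereas the GENCODE M21 gene begins upstream, at 87858265. The bases before that upstream start were not searched. Capitals mark TATA-type letters (TATNNA, N being any base).
Igfbp5, chr1:72874886-72874965, minus strand: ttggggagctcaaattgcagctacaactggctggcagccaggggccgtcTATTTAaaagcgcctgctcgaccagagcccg
Igfbp3, chr11:7213944-7214023, minus strand: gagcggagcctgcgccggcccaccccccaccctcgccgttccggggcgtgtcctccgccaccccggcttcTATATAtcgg
Igfbp4, chr11:99041144-99041223, plus strand: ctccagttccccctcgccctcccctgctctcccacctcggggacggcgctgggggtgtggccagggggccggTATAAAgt
These letters begin 51, 30 and 28 bases before the RefSeq start in Igfbp5, Igfbp3 and Igfbp4. For Igfbp5 the GENCODE M21 start (72874884) lies upstream of the RefSeq start (72874865) and nearer to these letters. For Igfbp3 and Igfbp4 both sources give the same start. A match on the gene's strand that begins 60 to 20 bases before the start was found in 4 of the 9 windows of the IGF genes (the fourth is Igfbp6) and in 10.2% of 32851 promoters. This motif and window were chosen after the sequences were seen. The stricter TATA letters TATAAA were searched on either strand within 250 bases before the start. They were in 2 of the 9 windows (Igfbp4 and Igfbp6) and in 12.4% of all promoters. In Igfbp6 the match lay on the opposite strand, 148 to 143 bases before the start. A GC box (GGGCGG), searched likewise, was in 3 of the 9 windows (Igf1r, Igfbp2 and Igfbp7) and in 32.7% of all promoters. A Gli-type motif (GACCACCCA, either strand, within 250 bases before the start) was found in none of the 9 windows of these genes and in 0.225% of all promoters, and a FoxO-type motif (GTAAACA) in none of the 9 and in 3.17% of all. A missing match says only that these letters are not in the window.

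Marker genes of other cell types also differed between the groups, some lower and some higher in anterior cells. For comparison, 22.9% of all tested genes were called, 12.3% lower and 10.7% higher. The marker lists were chosen with earlier results of these data known. Of 7 myogenic markers, all 7 were lower in anterior cells, and their sum was 4.17 and 2.35 CPM in anterior against 143 and 142 in central libraries. Myog and Pax7 had 0 counts in both anterior libraries. Of 5 tendon and connective tissue markers, 4 were tested and all 4 were lower, with sums of 18.4 and 14.2 against 319 and 330 CPM. Chondrogenic markers summed to 357 and 265 against 1338 and 1062 CPM, with 3 of 5 tested markers lower, among them Col2a1. Matn1 had 0 counts in both anterior libraries, and Snorc had 0 in all 4 libraries. Surface ectoderm and ridge markers were lower in 10 of 11, with sums of 10.5 and 10.8 against 57.9 and 192 CPM, and the Krt5 call was lost with limma-voom (adjusted p-value 0.105). Endothelial markers were lower in 6 of 10, with sums of 13.6 and 20.3 against 39.5 and 49.7 CPM, and Schwann and neural crest markers were lower in 2 of 3 tested, with sums of 6.42 and 5.66 against 25.6 and 19.96 CPM. Sox10 and Foxd3 had 0 counts in both anterior libraries. In the other direction, all 8 tested erythroid markers and 5 of 8 macrophage markers were higher in anterior cells, the latter with sums of 23.2 and 18.7 against 7.99 and 7.69 CPM. The call of the macrophage marker Cx3cr1 was lost without anterior replicate 1 (edgeR adjusted p-value 0.211) or central replicate 1 (0.0841). Of 4 tested pericyte markers 1 was lower (25%, beside 12.3% of all tested genes), with sums of 558 and 603 against 527.5 and 621 CPM. Of 9 genes induced by tissue dissociation 1 was higher (11.1%, beside 10.7%) and 2 were lower (22.2%, beside 12.3%). Their sums were 568 and 537 against 797 and 612 CPM. The part of these cell types in the changes of the IGF genes was not tested.

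The other genes of the pathway were called about as often as all tested genes. The 68 genes stood in 8 lists, which were chosen with earlier results of these data known. Of these genes, 64 were tested and 16 were called (25%, beside 22.9% of all genes). In anterior cells 3 were called higher (4.69%, beside 10.7% of all genes) and 13 lower (20.3%, beside 12.3%). The median log2 fold change of the 64 tested genes was 0.022.

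**Figure D5:**
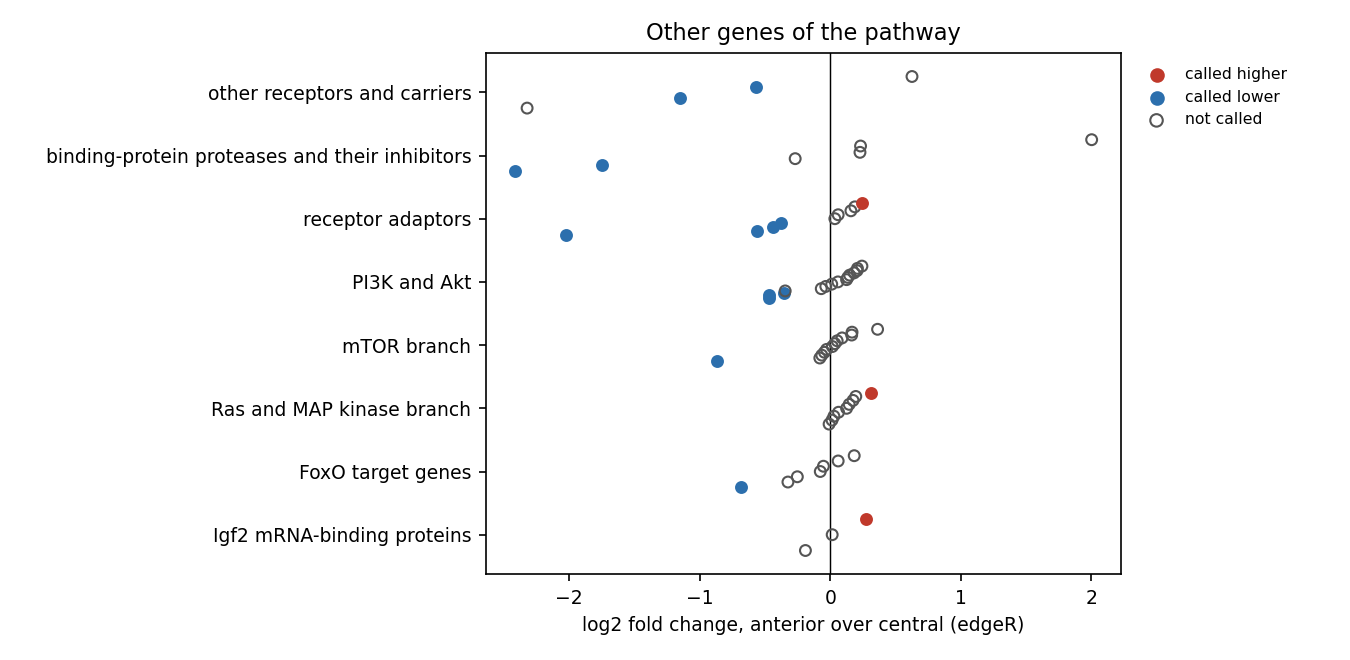
Log2 fold change (anterior over central, edgeR) of each tested gene in the pathway lists. Filled red marks genes called higher, filled blue genes called lower and open circles genes not called. The called fall farthest from 0 is that of Pappa, at -2.42, and 48 of the 64 genes are open circles.

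Among receptors and carriers, 2 of 4 tested genes were lower (50%, beside 12.3% of all tested genes). Igf2r, which removes Igf2 from the cell surface, measured 252.5 and 256.1 CPM in anterior and 365 and 391 in central libraries (log2 change -0.57 ± 0.06, SE; adjusted p by edgeR 0.000357). Ghr, the growth hormone receptor, measured 12.6 in both anterior libraries and 31.5 and 24.4 CPM in central ones (log2 change -1.15 ± 0.15, SE; adjusted p by edgeR 0.000807). Growth hormone is a known inducer of Igf1 after birth. Igfbp1 and Igfals were too low to be tested.

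Among the proteases that cut binding proteins and their inhibitors, 2 of 6 tested genes were lower (33.3%, beside 12.3% of all tested genes). Pappa, which cuts Igfbp4 and Igfbp5, measured 0.84 and 0.61 CPM in anterior and 3.25 and 4.57 in central libraries (log2 change -2.42 ± 0.39, SE; adjusted p by edgeR 0.00274). Adam12, a membrane protease reported to cut Igfbp3 and Igfbp5, measured 3.15 and 2.05 against 8.74 and 8.804 CPM (log2 change -1.75 ± 0.27, SE; adjusted p by edgeR 0.00207). Pappa2 was low throughout, at 1.20 and 0.34 against 0.26 and 0.12 CPM, and did not pass (adjusted p-value 0.117). Stc2, an inhibitor of Pappa, and the secreted protease Htra1 had overlapping groups and log2 fold changes of -0.27 and 0.23.

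Of 9 tested adaptors that couple the receptors to signalling, 4 were lower (44.4%, beside 12.3% of all tested genes). Another 1 was higher (11.1%, beside 10.7%). Irs1, a docking protein of the activated receptors, measured 102 and 105 CPM in anterior and 135 and 170 in central libraries (log2 change -0.56 ± 0.10, SE; adjusted p by edgeR 0.00541). Irs2, its relative, measured 128 in both anterior libraries and 122 and 124 CPM in central ones, and did not pass (adjusted p-value 0.55). Grb10, an adaptor that dampens receptor signalling, measured 1383 and 1405 against 1733 and 1883 CPM (log2 change -0.38 ± 0.07, SE; adjusted p by edgeR 0.0042). Gab1 fell by 0.44, and Grb14, named after its values were seen, fell by 2.02 on the log2 scale from central values of 2.76 and 3.28 CPM. Shc1, which links receptors to Ras, was higher by 0.24 (edgeR adjusted p-value 0.0345), a call lost under library-size and upper-quartile scaling (adjusted p-values 0.0548 and 0.0565) and without anterior replicate 1 (0.118), anterior replicate 2 (0.232) or central replicate 1 (0.0635). Leaving out anterior replicate 2 ended the Gab1 call (adjusted p-value 0.122).

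Downstream of the receptors, 3 of 15 genes in the PI3K and Akt list were lower (20%, beside 12.3% of all tested genes called lower and 22.9% called in either direction), all by less than 0.5 on the log2 scale. The regulatory subunits Pik3r3 and Pik3r1 had log2 fold changes of -0.47 and -0.47 (edgeR adjusted p-values 0.00143 and 0.0279), and Foxo4 had -0.35 (adjusted p-value 0.00707). The Foxo4 call was lost without anterior replicate 1 (adjusted p-value 0.0508) or anterior replicate 2 (0.0543). The Pik3r1 call was lost without anterior replicate 1 (adjusted p-value 0.158) or central replicate 2 (0.0581). Akt1 and Foxo1 were not called, with log2 fold changes of 0.18 and 0.15. Akt1 was called higher by the DESeq2 Wald test (adjusted p-value 0.0337), without a filter (0.0486) and without central replicate 1 (0.0216). In the mTOR branch 1 of 12 genes was lower (8.33%, beside 12.3% of all tested genes). That gene was Ddit4, a stress-induced inhibitor of mTOR complex 1. It measured 49.3 and 41.8 against 87.1 and 79.5 CPM (log2 change -0.87 ± 0.10 SE, edgeR adjusted p-value 0.000445). In the Ras and MAP kinase branch 1 of 9 genes was higher (11.1%, beside 10.7% of all tested genes). That gene was Nras, higher by 0.31 (edgeR adjusted p-value 0.0117). Its call was lost without anterior replicate 1 (log2 change 0.286). Of 7 FoxO target genes only Sesn3 was called, and it was lower (14.3%, beside 12.3% of all tested genes called lower). Sesn3 measured 36.4 and 40.5 against 57.3 and 66.4 CPM (log2 change -0.69 ± 0.10 SE, edgeR adjusted p-value 0.00189).

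The Igf2 mRNA-binding proteins, which bind Igf2 and other transcripts, were abundant in both groups. Igf2bp1 measured 657 and 647 CPM in anterior and 497 and 582 in central libraries (log2 change 0.27 ± 0.08, SE; adjusted p by edgeR 0.0411). Library-size scaling (adjusted p-value 0.0696), upper-quartile scaling (0.0635) and a mean count of at least 50 (0.0505) each ended the call, as did leaving out anterior replicate 1 (0.137), anterior replicate 2 (0.117) or central replicate 1 (0.0833). Igf2bp2 measured 410 and 395 against 382 and 414 CPM and overlapped between groups. Igf2bp3 measured 255 and 262 against 281 and 309 CPM, with an adjusted p-value of 0.0754. It passed as lower with library-size scaling (0.0449), with upper-quartile scaling (0.0355) and without central replicate 1 (0.00548).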

How the data were processed

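The authors deposited whole-number read counts per gene symbol, not normalized, with 1 column per library. Per the submitters' processing notes, STAR 2.7.9a, HTSeq, DESeq2 3.16 and mm10 were used, with no role given. Annotation and strandedness are not given in the sources used here. Even numbers made up 72.8% to 75.6% of counts from 1 to 10, as when both mates are counted, so halved counts were also fitted. Columns were matched to samples by domain name and number in the titles. All genes were fitted in edgeR 4.0.16 (R 4.3.3; default filterByExpr, TMM, quasi-likelihood F test, Benjamini-Hochberg, threshold 0.05), which left 2 residual degrees of freedom. SE is the absolute log2 fold change divided by the square root of F. The fit was also run on simulated counts, with fewer changed genes than were called here and smaller changes than that of Igfbp5. No result above rests on that run. Lengths and positions come from GENCODE M21 (GRCm38). Alternatives included DESeq2 1.42.0 and limma-voom (limma 3.58.1). Named genes were the 9 members, 14 fixed genes, up to 4 called genes per pathway list (those with the largest changes, mean CPM 5 or more), the limb mesenchyme markers and up to 2 markers of each other list; markers at 0 counts and Grb14 were named outside this rule, and 1 of the fixed genes is not reported here. Members and lists were chosen with earlier results of these data known. Same-numbered libraries shared little deviation (correlation 0.064 across genes). Promoter windows come from RefSeq (GRCm38.p6). A count of 0 allows up to 3 counts, or 0.0899 to 0.102 CPM, and such limits cover counting error only. They take counts as independent and would be higher if both mates were counted. Replicates differed beyond counting noise (chi-square per degree of freedom on halved counts 15.2 in anterior and 8.56 in central libraries). The median absolute log2 difference between replicates was 0.113 in anterior and 0.139 in central libraries, so these measures order the groups differently. Exact permutation tests were used for ratios and shares.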

Additional observations from a re-analysis of the deposited data

How the results depend on the processing

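Igf1, Igfbp2, Igfbp3, Igfbp4 and Igfbp5 stayed lower and called, and Igfbp7 stayed uncalled, under all 10 settings that keep the 4 libraries and all 4 that leave out 1 (a lone library is then assumed to vary like the other group). Igfbp6 had no value with halved counts and with the mean-count filter, and Igfbp7 none with that filter. With the replicate block 3586 genes were called, and no member's call changed. No pairing is given by the labels. Igf1r turned to -0.0278 with library-size scaling, -0.0341 with upper-quartile factors, -0.012 with a mean count of at least 50 and -0.000307 with halved counts, and Insr to -0.0132 and -0.0199 with those scalings. Without 1 library, log2 fold changes ranged from -0.114 to 0.135 for Igf1r, -0.0105 to 0.0501 for Insr, -6.57 to 0.166 for Igfbp6, -0.584 to 0.00333 for Stc2, -0.177 to 0.553 for Htra1, -0.04 to 0.0761 for Igf2bp2, -0.125 to 0.0433 for Pitx1 and -0.119 to 0.127 for Notch3. Igf2bp2 was -0.0156 and -0.0223 with the scalings, and Notch3 was 0.00103 under limma-voom, 0.00255 unfiltered and 0.00183 under the replicate block. The cause was not tested.

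Called genes numbered 3351, and 1690 at a threshold of 0.01, 1035 against a 1.5-fold change and 2009 to 3697 without 1 library, the lowest without anterior replicate 2. In the lists, calls without 1 library ranged from 3 to 6 (adaptors), 1 to 6 (PI3K and Akt; 3 higher and 3 lower without central replicate 1), 1 to 4 (mTOR; 3 higher and 1 lower without central replicate 2), 0 to 2 (Ras), 1 to 2 (FoxO targets) and 0 to 1 (Igf2 mRNA-binding proteins). Without a filter 6 PI3K and Akt (3 higher, 3 lower), 2 mTOR (1 higher, 1 lower) and 2 FoxO target genes (both lower) were called, with the replicate block 2 mTOR (1 higher, 1 lower) and 2 FoxO target genes (both lower), and with a mean count of at least 50 there were 0 Igf2 mRNA-binding proteins. With the longest transcript as length, central levels per kb became 15.5 for Igf1, 32.7 for Igf1r, 9.31 for Insr, 139 for Igfbp2, 18.2 for Igfbp3 and 243.6 for Igfbp4. Shares became 28.4% (anterior) and 30.4% (central) for Igfbp2, 70.2% and 53.2% for Igfbp4 and 12.04% (central) for Igfbp5. Depth limits the values of Igfbp6 and Igfbp7.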
